A study of Rattus norvegicus with 12 samples.

Results

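The 9 genes described here were Vegfa, Vegfb, Vegfc, Pgf, Flt1, Kdr, Nrp1, Nrp2 and Hif1a, taken by their symbols from 34700 genes counted by RNA sequencing of rat heart. The first 4 encode ligands of the vascular endothelial growth factor (VEGF) family, Flt1 and Kdr encode receptors and Nrp1 and Nrp2 co-receptors. Hif1a is not a member of the family but encodes an oxygen-regulated transcription factor that is known to drive Vegfa. All 12 animals were male Sprague-Dawley rats, operated on at 8 weeks of age and sampled 12 weeks after surgery, with 3 rats in each of 4 groups. In the Sham group a thread was passed around the anterior descending coronary artery without being tied, and in the HF group the artery was ligated to produce an infarct and heart failure. Both of these groups were sedentary. The study had Sham and HF groups in its exercise and in its gavage experiment, and the labels do not say from which these rats came. In the study's methods those of the gavage experiment received water by gavage, although a supplement words the BAIBA dose as given to Sham and HF rats. The labels were followed. The HFE group was ligated and, after grouping by cardiac function at 4 weeks, had 8 weeks of treadmill running at 60 min per session and 5 sessions a week. The BAIBA group was ligated and received β-aminoisobutyric acid (BAIBA), a small metabolite that working skeletal muscle releases, by gavage at 75 mg/kg/day for 8 weeks. RNA came from the anterior wall of the left ventricle, but the sources differ on the area. The methods name the area around the infarct for the BAIBA group only, while elsewhere the study names it for HF and BAIBA. Tissue area and group therefore cannot be told apart in comparisons of BAIBA with Sham or HFE. By one source or the other this also holds for BAIBA against HF, HF against Sham and HFE against HF. HFE and BAIBA rats also belonged to separate experiments, on exercise and on gavage. Experiment and group therefore cannot be told apart in BAIBA against HFE. Depending on the source of the Sham and HF rats, the same holds for HFE or BAIBA against them. The comparisons ask how the VEGF genes lay after infarction, how they lay when infarcted rats were exercised or given BAIBA, and whether these 2 treatments differed.

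VEGF-A is the main growth factor for blood vessels and acts on endothelial cells through VEGFR-2, the product of Kdr, a tyrosine kinase that signals to proliferation, migration and permeability. VEGFR-1, the product of Flt1, binds VEGF-A, VEGF-B and placental growth factor with high affinity but signals weakly, and its soluble form holds ligand away from VEGFR-2. Neuropilins bind VEGF beside VEGFR-2 and also serve semaphorins, and in the heart cardiomyocytes are a known source of VEGF-A while the receptors sit mainly on endothelium.

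Every one of the 9 genes matched a RefSeq promoter window of 300 bases around the start of transcription on the rat assembly GRCr8, and 5 windows are shown. Vegfa is printed because it was the most abundant of the 9. Kdr, Nrp1 and Nrp2 are printed because their levels followed each other most closely over the rats. Hif1a is printed because it was alone in holding ACGTG, a form of the core of the hypoxia response element. Other forms of that core were not searched, so the other windows are not shown to lack the element. Capitals mark ACGTG and GGGCGG, the GC box, on either strand, so that CACGT and CCGCCC are the reverse complements. The windows lie at chr9:22452604-22452903 on the plus strand for Vegfa (the first of 2 listed starts), at chr14:32571813-32572112 on the plus strand for Kdr, at chr19:73256307-73256606 on the plus strand for Nrp1, at chr9:71617004-71617303 on the plus strand for Nrp2 and at chr6:98359648-98359947 on the plus strand for Hif1a.
Vegfa: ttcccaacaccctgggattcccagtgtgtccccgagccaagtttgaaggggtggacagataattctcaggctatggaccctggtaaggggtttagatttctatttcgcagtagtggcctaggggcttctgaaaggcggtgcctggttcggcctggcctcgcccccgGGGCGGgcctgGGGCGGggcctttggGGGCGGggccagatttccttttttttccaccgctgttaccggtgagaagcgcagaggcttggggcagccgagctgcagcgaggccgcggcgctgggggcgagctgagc
Kdr: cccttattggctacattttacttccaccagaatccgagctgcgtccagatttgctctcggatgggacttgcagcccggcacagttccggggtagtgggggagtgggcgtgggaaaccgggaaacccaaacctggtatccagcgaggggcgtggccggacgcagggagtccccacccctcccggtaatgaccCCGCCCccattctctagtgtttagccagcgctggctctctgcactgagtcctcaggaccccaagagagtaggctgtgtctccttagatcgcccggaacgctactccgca
Nrp1: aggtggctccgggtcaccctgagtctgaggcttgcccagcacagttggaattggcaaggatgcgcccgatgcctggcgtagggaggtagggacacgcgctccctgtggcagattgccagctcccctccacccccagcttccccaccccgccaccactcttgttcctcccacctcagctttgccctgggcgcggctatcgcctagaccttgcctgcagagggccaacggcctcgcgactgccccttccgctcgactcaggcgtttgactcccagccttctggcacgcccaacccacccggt
Nrp2: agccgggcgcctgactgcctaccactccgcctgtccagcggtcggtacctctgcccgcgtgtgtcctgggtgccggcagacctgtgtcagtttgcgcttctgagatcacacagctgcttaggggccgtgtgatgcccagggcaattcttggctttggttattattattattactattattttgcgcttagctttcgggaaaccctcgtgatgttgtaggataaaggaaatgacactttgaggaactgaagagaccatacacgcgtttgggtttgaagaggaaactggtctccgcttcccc
Hif1a: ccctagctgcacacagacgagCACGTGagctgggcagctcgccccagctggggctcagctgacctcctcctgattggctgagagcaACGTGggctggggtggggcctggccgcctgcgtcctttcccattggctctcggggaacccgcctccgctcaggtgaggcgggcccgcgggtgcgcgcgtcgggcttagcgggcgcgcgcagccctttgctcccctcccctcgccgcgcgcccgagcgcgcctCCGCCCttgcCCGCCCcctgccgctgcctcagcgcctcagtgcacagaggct

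In the Vegfa window GGGCGG began at positions -84, -73 and -58 from the start site, all on the plus strand. The Hif1a window held ACGTG at positions -229, -228 and -164, where the first 2 are the same palindrome CACGTG read on both strands. Neither Nrp1 nor Nrp2 held ACGTG or GGGCGG, and Kdr held GGGCGG once, at position -59 on the minus strand. Of the windows not printed, Vegfb held GGGCGG 4 times, Flt1 3 times, and Vegfc and Pgf 2 times each. Searched on both strands in the same way, ACGTG was found in 19.3% and GGGCGG in 33.1% of 33469 RefSeq promoter windows. TATAAA was found in Flt1 alone (14.2% of all windows), as was the cyclic AMP response element TGACGTCA (1.83%), and the ETS core CCGGAA in Kdr alone, 2 times (15.0%). A match describes letters in this window and was not tested as a binding site.

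The ligands differed widely in abundance. In FPKM, fragment counts scaled by gene length and by library size so that genes of different length can be compared, Vegfa averaged 256 over the 12 rats and ranked 208th of 15617 expressed genes. Vegfb followed at a mean level of 58.4 FPKM, while Vegfc, a ligand of lymphatic endothelium, averaged 3.69 FPKM and Pgf, placental growth factor, 1.70 FPKM. Vegfd, the remaining VEGF ligand, lay between 2.10 and 6.80 FPKM in single rats. Vegfa thus supplied 75.7% to 82.5% of the summed ligand FPKM in every rat, Vegfb 15.5% to 21.2%, and Pgf 0.283% to 0.767%.

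Among the binding partners, Nrp1 had the highest mean level at 49.9 FPKM, followed by Flt1 at 26.5 FPKM, Kdr at 24.0 FPKM and Nrp2 at 9.62 FPKM. Hif1a averaged 12.7 FPKM. Flt1 and Kdr were close to each other per length, with a Flt1 to Kdr ratio of 1.12 ± 0.113 (SD, n = 3) in Sham, 1.20 ± 0.220 in HF, 0.926 ± 0.136 in HFE and 1.26 ± 0.151 in BAIBA. The HFE group had the lowest mean ratio and every BAIBA rat lay above every HFE rat, the BAIBA ratios running from 1.08 to 1.35 and the HFE ratios from 0.821 to 1.08 (1.0844 against 1.079 at the closest pair). Nrp1 exceeded Nrp2 by 4.58 to 6.27 times in every rat. Raw counts in single libraries ran from 10973 to 18822 for Vegfa but only from 23 to 63 for Pgf and from 96 to 160 for Vegfc, so that counting error alone is far larger for the 2 rare ligands.

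**Figure D1:**
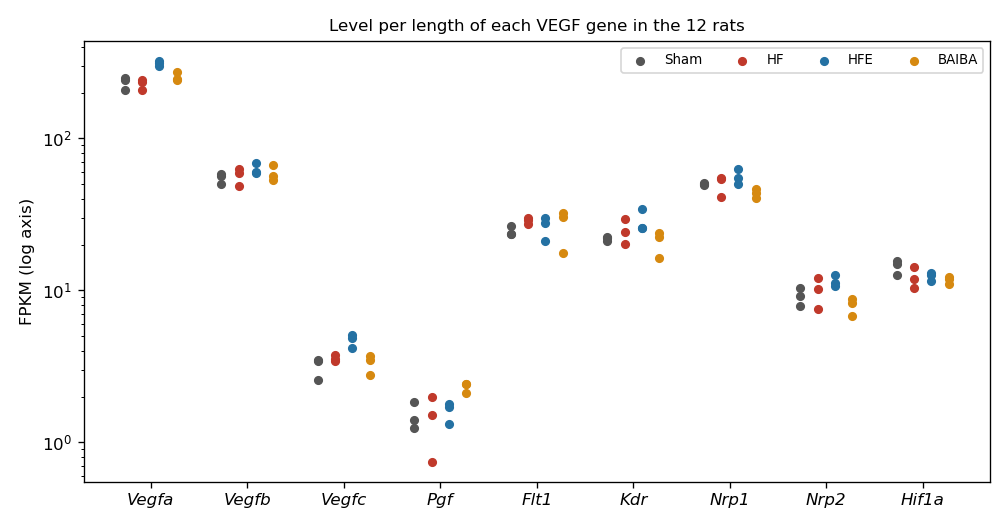
FPKM of the 9 genes (vertical log axis) in the 12 rats, 1 point per rat, coloured by group. Vegfa lies above all others at a mean of 256 FPKM and Pgf lowest at 1.70 FPKM.

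The libraries held 14812541 to 19732588 counted reads each, and rats of 1 group differed from each other by more than counting error in all pairs. From here levels are CPM, counts divided by the TMM-corrected library total, and differences are log2 fold changes with standard errors (SE) from edgeR's quasi-likelihood fit. The 9 genes were chosen by symbol with earlier measured fold changes and levels of these same rats known, so their differences between groups are given as a description and carry no test. By the study's own rule for differential expression (a Benjamini-Hochberg adjusted p below 0.05 over all genes tested, and a log2 fold change beyond 1 in either direction), 0 of the 9 genes passed in each of the 6 comparisons with edgeR, and 0 with DESeq2. Over all genes that rule passed 0% in HF against Sham, in HFE against HF, in BAIBA against HF and in HFE against Sham, 0.0808% in BAIBA against HFE and 0.0402% in BAIBA against Sham. The study's methods name DESeq2 as the tool for this rule, so the edgeR counts share its thresholds but not its tool. With DESeq2 the rule passed 0.154%, 0.12% and 0.18% of all genes in HF against Sham, in HFE against HF and in BAIBA against HF. It passed 1.04% in BAIBA against HFE, 0.462% in BAIBA against Sham and 0.446% in HFE against Sham. At an unadjusted p under 0.05, edgeR put 1 of the 9 genes in HF against Sham (6% of all genes), 2 in HFE against HF (7.62%), 0 in BAIBA against HF (5.55%), 5 in BAIBA against HFE (9.57%), 2 in BAIBA against Sham (7.41%) and 5 in HFE against Sham (11.2%). The values below therefore describe how the genes lay in these rats, and every shift named for the 9 genes is smaller than the 2-fold limit.

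Vegfa, which encodes the chief angiogenic ligand, stood highest in the exercised rats. It measured 867, 862 and 721 CPM in Sham, 813, 838 and 773 CPM in HF, 1088, 1106 and 1192 CPM in HFE and 813, 999 and 855 CPM in BAIBA. The 3 HFE rats were above all the 9 others, while Sham, HF and BAIBA overlapped with their neighbours in the order of group means. Its log2 fold change was 0.48 (SE 0.08) in HFE against HF, a 1.40-fold level, and 0.47 (SE 0.09) in HFE against Sham. The infarcted sedentary rats lay within the range of the Sham rats, with a log2 fold change of -0.02 (SE 0.11) in HF against Sham. BAIBA lay in between, at 0.14 (SE 0.12) on the log2 scale against HF and -0.34 (SE 0.10) against HFE. Leaving out 1 rat moved the Vegfa value in BAIBA against HF to 0.05 (SE 0.11, without BAIBA rat 2) and turned the sign in HF against Sham, where it ran from -0.09 to 0.04, positive without HF rat 3, Sham rat 1 or Sham rat 2.

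Vegfb, whose product binds VEGFR-1 and is known for roles in fatty acid handling, showed a smaller shift of the same sign. It measured 90.1, 99.3 and 101 CPM in Sham, 107, 107 and 90.2 CPM in HF, 122, 111 and 113 CPM in HFE and 93.8, 98.8 and 118 CPM in BAIBA. The HFE rats were above all Sham and HF rats, and overlapped with BAIBA through BAIBA rat 3. Exercised rats differed in Vegfb by a log2 fold change of 0.18 (SE 0.10) against HF and 0.25 (SE 0.08) against Sham, and BAIBA against HFE gave -0.15 (SE 0.11). Without HF rat 3 the first was 0.10 (SE 0.09), and the last was -0.09 without BAIBA rat 1 and -0.25 without BAIBA rat 3.

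Vegfc, a ligand of VEGFR-3 and a growth factor for lymphatic vessels, was also highest after exercise. It measured 5.54, 7.20 and 7.29 CPM in Sham, 6.94, 7.61 and 8.31 CPM in HF, 10.7, 10.9 and 9.24 CPM in HFE and 6.92, 8.21 and 5.85 CPM in BAIBA. As with Vegfa, the 3 HFE rats were above the 9 others and the remaining groups overlapped. For Vegfc the log2 fold change was 0.43 (SE 0.15) in HFE against HF, 0.63 (SE 0.16) in HFE against Sham and -0.55 (SE 0.18) in BAIBA against HFE. Vegfd, the other lymphatic ligand, had HFE as its lowest group by the mean. It measured 16.3, 14.2 and 9.26 CPM in Sham, 16.3, 17.6 and 8.05 CPM in HF, 12.1, 10.04 and 6.46 CPM in HFE and 18.6, 12.3 and 13.4 CPM in BAIBA, with a log2 fold change of 0.64 (SE 0.26) in BAIBA against HFE.

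Pgf, which encodes a VEGFR-1 ligand known from ischaemic and inflamed tissue, stood highest in the BAIBA rats. It measured 1.96, 2.14 and 2.82 CPM in Sham, 2.92, 2.39 and 1.22 CPM in HF, 2.73, 2.15 and 2.79 CPM in HFE and 3.51, 3.40 and 3.74 CPM in BAIBA. All 3 BAIBA rats were above the 9 others, and the other groups overlapped with each other. The log2 fold change of Pgf was 0.70 (SE 0.35) in BAIBA against HF, 0.48 (SE 0.23) in BAIBA against HFE and 0.63 (SE 0.25) in BAIBA against Sham. HF rat 3 was the lowest of all, and without it the value against HF was 0.42 (SE 0.28). The sign of the Pgf difference in HFE against HF also turned without that rat, from 0.23 (SE 0.36) to -0.06 (SE 0.29), as did that in HF against Sham, from -0.09 (SE 0.37) to 0.21 (SE 0.30).

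**Figure D2:**
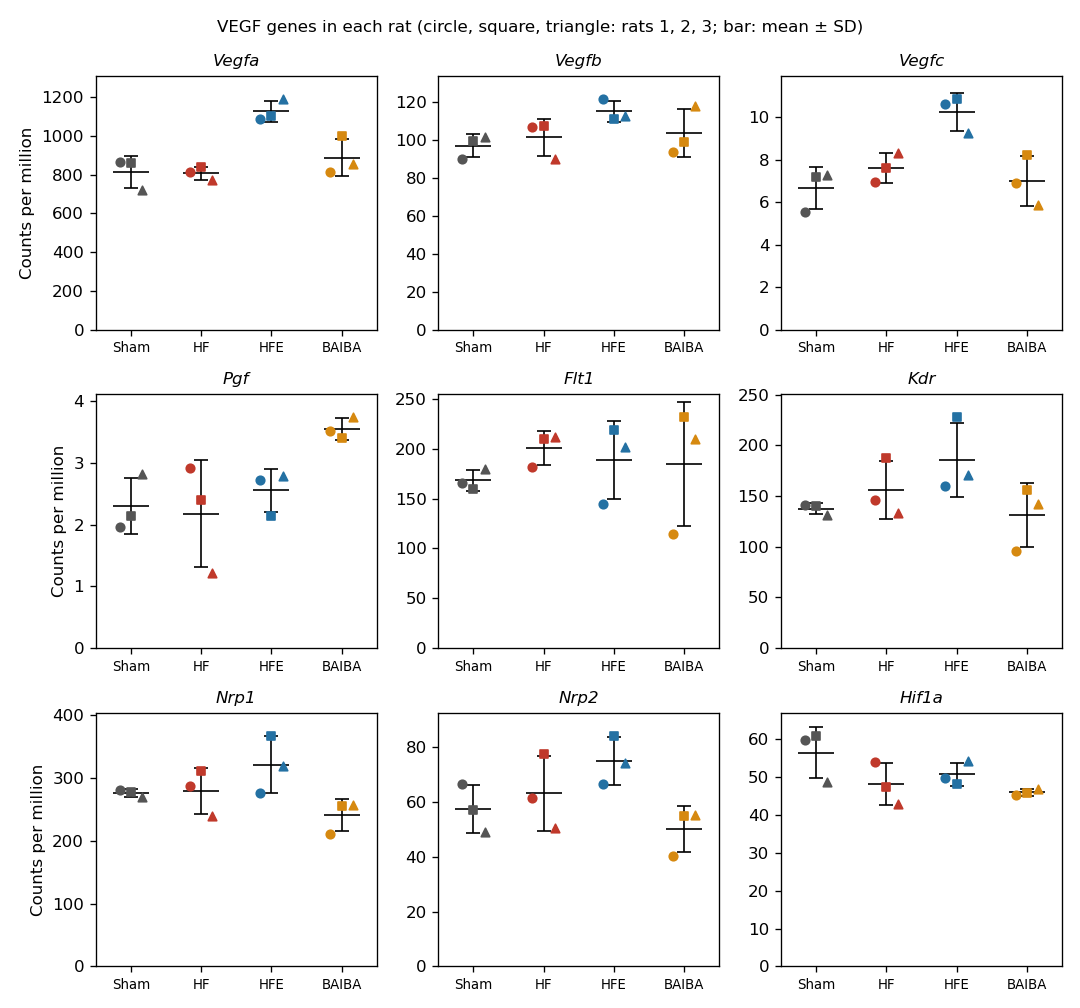
CPM (vertical axes, from 0) of the 9 genes in each rat, with the mean and SD of each group of 3. For Vegfa and Vegfc the 3 HFE points lie above the 9 others, for Pgf the 3 BAIBA points do, and BAIBA rat 1 (circle) is the lowest of the 12 for Flt1, Kdr, Nrp1 and Nrp2.

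The receptor Flt1 did not follow the ligands. It measured 166, 159 and 180 CPM in Sham, 181, 210 and 212 CPM in HF, 144, 219 and 202 CPM in HFE and 114, 232 and 210 CPM in BAIBA. The HF rats were just above the Sham rats, and the HFE and BAIBA groups each held 1 low rat that reached below all Sham rats. Flt1 had a log2 fold change of 0.26 (SE 0.10) in HF against Sham, -0.09 (SE 0.16) in HFE against HF and -0.12 (SE 0.25) in BAIBA against HF. Single rats decided the sign of several Flt1 values. Its value in HFE against HF ran from -0.22 without HFE rat 2 to 0.07 (SE 0.11) without HFE rat 1, and every single rat left out moved it by over 1.5 times. BAIBA against HF was 0.14 (SE 0.13) without BAIBA rat 1, and -0.31 without BAIBA rat 2, -0.21 without BAIBA rat 3 and -0.18 without HF rat 1. BAIBA against HFE went from -0.03 (SE 0.28) to 0.22 (SE 0.18) without BAIBA rat 1, to 0.10 without HFE rat 2 and to 0.02 without HFE rat 3, and was negative without each of the other 3 rats, down to -0.22 without BAIBA rat 2.

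Kdr, which encodes the main signalling receptor, was highest by its mean in HFE and lowest in BAIBA. It measured 141, 140 and 131 CPM in Sham, 146, 188 and 133 CPM in HF, 160, 227 and 170 CPM in HFE and 96.0, 156 and 142 CPM in BAIBA. The HFE rats were above all Sham and all BAIBA rats but overlapped with HF through HF rat 2. On the log2 scale Kdr differed by 0.44 (SE 0.13) in HFE against Sham, 0.25 (SE 0.18) in HFE against HF and -0.50 (SE 0.21) in BAIBA against HFE. These Kdr values leaned on single rats. HFE against HF was 0.08 (SE 0.16) without HFE rat 2, 0.15 without HF rat 3 and 0.41 without HF rat 2, and HFE against Sham was 0.26 (SE 0.09) without HFE rat 2. BAIBA against HFE was -0.32 (SE 0.16) without BAIBA rat 1 and -0.33 without HFE rat 2. BAIBA against HF was -0.25 (SE 0.21) with all rats, -0.06 (SE 0.17) without BAIBA rat 1, -0.10 without HF rat 2 and -0.39 without BAIBA rat 2.

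Nrp1, the co-receptor that presents VEGF-A to VEGFR-2, had the same order of group means as Kdr. It measured 281, 278 and 269 CPM in Sham, 287, 312 and 240 CPM in HF, 276, 367 and 319 CPM in HFE and 211, 255 and 257 CPM in BAIBA. Every BAIBA rat was below every Sham and HFE rat, and the HF rats overlapped with all groups. Its log2 fold change was -0.41 (SE 0.13) in BAIBA against HFE, -0.19 (SE 0.10) in BAIBA against Sham, -0.22 (SE 0.14) in BAIBA against HF and 0.20 (SE 0.14) in HFE against HF. In HFE against HF it was 0.08 (SE 0.14) without HFE rat 2 and 0.10 (SE 0.13) without HF rat 3. Without BAIBA rat 1 it was -0.11 against Sham and -0.12 against HF, and without HF rat 2 BAIBA against HF was -0.13.

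Nrp2, the co-receptor better known from veins, lymphatics and semaphorin signalling, again ran in the order HFE, HF, Sham, BAIBA. It measured 66.6, 57.0 and 49.0 CPM in Sham, 61.5, 77.7 and 50.5 CPM in HF, 66.8, 84.2 and 74.4 CPM in HFE and 40.4, 54.8 and 55.2 CPM in BAIBA. HFE rats were above all Sham rats, the closest pair being 66.8 and 66.6 CPM, and above all BAIBA rats. The log2 fold change of Nrp2 was -0.58 (SE 0.15) in BAIBA against HFE, 0.39 (SE 0.13) in HFE against Sham, 0.25 (SE 0.17) in HFE against HF and -0.34 (SE 0.19) in BAIBA against HF. HFE against HF was 0.11 (SE 0.15) without HF rat 3, 0.15 without HFE rat 2 and 0.42 (SE 0.14) without HF rat 2. BAIBA against HF was -0.20 (SE 0.19) without BAIBA rat 1 and -0.16 (SE 0.18) without HF rat 2, and BAIBA against HFE was -0.45 (SE 0.12) without BAIBA rat 1.

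Hif1a, whose product is regulated mainly by protein stability, was highest by its mean in Sham. It measured 59.9, 60.9 and 48.7 CPM in Sham, 54.1, 47.5 and 42.9 CPM in HF, 49.8, 48.2 and 54.3 CPM in HFE and 45.3, 45.7 and 47.0 CPM in BAIBA. The BAIBA rats were below all Sham and all HFE rats and were the least spread of the groups, and all neighbours in the order of means overlapped. The log2 fold change of Hif1a was -0.23 (SE 0.13) in HF against Sham, -0.29 (SE 0.11) in BAIBA against Sham and 0.07 (SE 0.11) in HFE against HF, the last of which was -0.01 (SE 0.10) without HF rat 3, 0.03 without HFE rat 3 and 0.17 without HF rat 1. Its order of groups by the mean was Sham, HFE, HF, BAIBA, where that of Vegfa was HFE, BAIBA, Sham, HF.

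Taking the 9 genes by comparison, the groups failed to overlap for 1 gene in HF against Sham, Flt1, which was higher, where 5.25% of all tested genes were higher and 6.55% lower without overlap. In HFE against HF this held for 3 genes, Vegfa, Vegfb and Vegfc, all higher (8.26% of all genes in that direction and 6.16% in the other), and the median log2 fold change over the 9 genes was 0.23 beside -0.01 over all genes. In BAIBA against HF it held for Pgf alone, which was higher (6.01% in that direction and 5.37% in the other), with a median of -0.12 beside -0.01. In BAIBA against HFE 6 genes were lower without overlap, Vegfa, Vegfc, Kdr, Nrp1, Nrp2 and Hif1a (8.37% in that direction), and Pgf was higher (7.13%). The median was -0.34 beside a median over all genes that was 0.000489. Overlap was scored on CPM. In FPKM the groups did overlap for Vegfb in HFE against HF and for Hif1a in BAIBA against HFE.

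In BAIBA against Sham Pgf was higher without overlap (6.52% of all genes) while Nrp1 and Hif1a were lower (6.17%), with a median of 0.07. In HFE against Sham 5 genes were higher without overlap, Vegfa, Vegfb, Vegfc, Kdr and Nrp2 (9.5% in that direction and 8.24% in the other), with a median of 0.25 beside 0.01. The comparisons share rats: HFE against HF and HFE against Sham use the same HFE rats, and BAIBA against HFE uses them again with the opposite sign. The rule that named the genes drew on the same rats, so nothing is read from these counts.

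**Figure D3:**
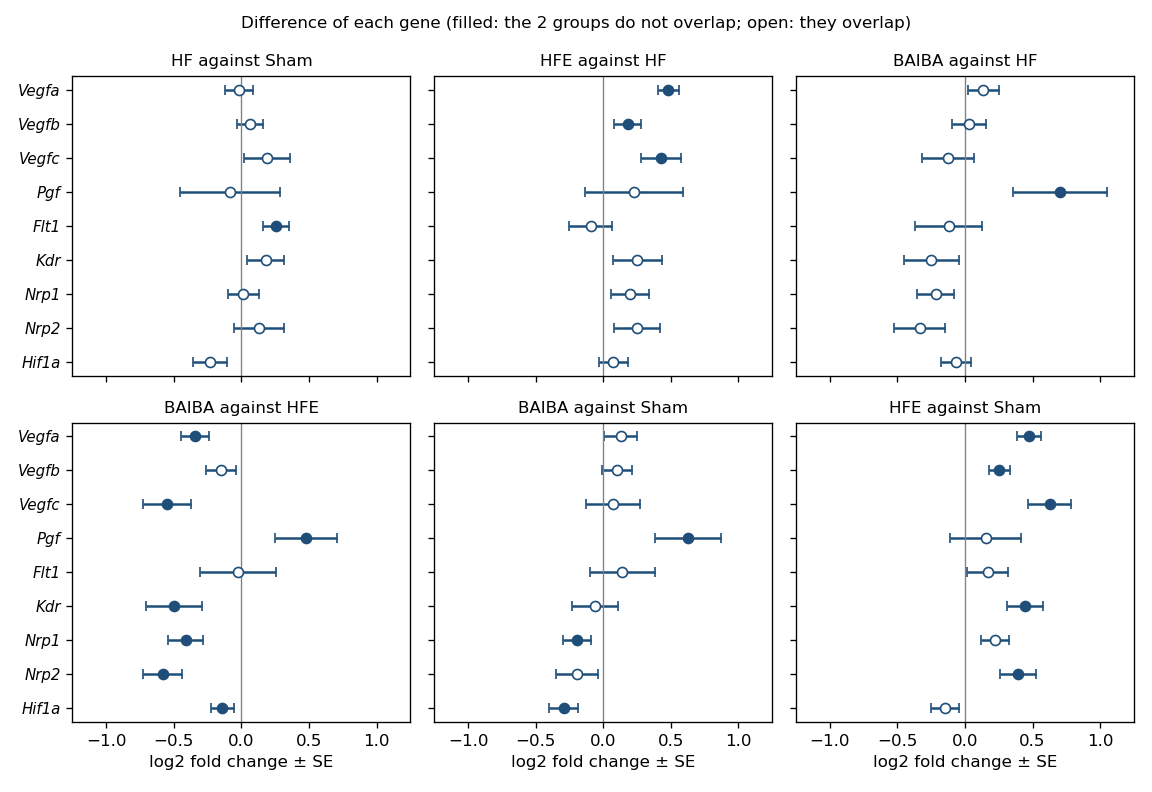
Log2 fold change with its SE (horizontal axes) of the 9 genes in each of the 6 comparisons. Filled points mark genes whose groups do not overlap, 3 of them in HFE against HF and 7 in BAIBA against HFE, and no point passes the limit of 1.

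Levels of Kdr, Nrp1 and Nrp2 followed each other over the rats more closely than those of any other members. Among 14213 expressed genes with a symbol, the gene most like Nrp1 in log2 CPM over the 12 rats was Nrp2 and the reverse (Pearson r = 0.934), and the 2 genes most like Kdr were Nrp2 (r = 0.926) and Nrp1 (r = 0.917). With the group means taken out, the values were 0.882 for Nrp1 and Nrp2, 0.873 for Kdr and Nrp2 and 0.906 for Kdr and Nrp1, so that rats of the same group differed along the same line. Flt1 was less like Kdr (r = 0.666, and 0.789 with group means taken out). Each rat's values come from 1 library and share its depth and scaling, and these correlations are a description of 12 rats.

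**Figure D4:**
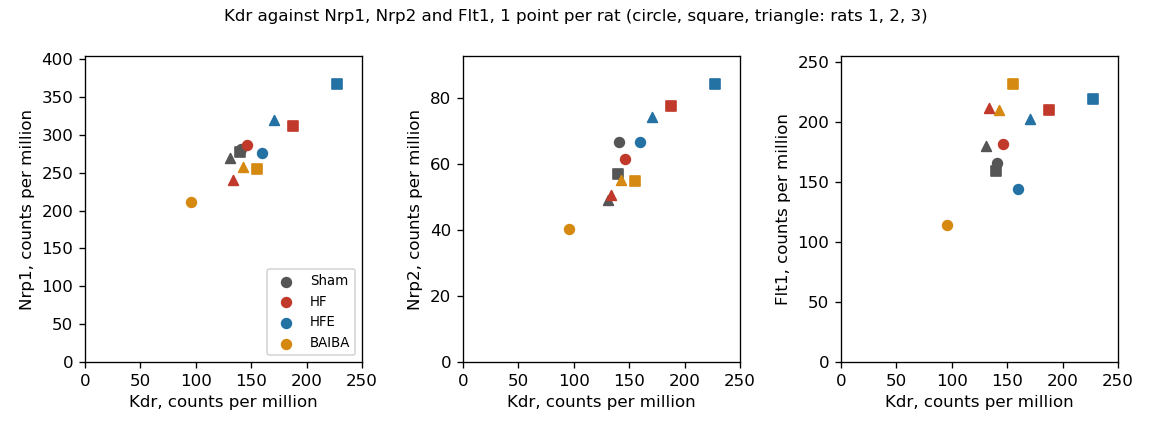
CPM of Nrp1, Nrp2 and Flt1 (vertical axes) against Kdr (horizontal axes), 1 point per rat and both axes from 0. Nrp1 and Nrp2 lie close to a line through the 12 rats (r = 0.917 and 0.926 on the log2 scale), with BAIBA rat 1 lowest and HFE rat 2 highest, and Flt1 is more scattered (r = 0.666).

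Beyond the receptors themselves, Kdr was next most like Tfpi, which encodes tissue factor pathway inhibitor (r = 0.880), Nrp1 like Lnx1 (r = 0.906) and Nrp2 like RF00100 (r = 0.915), a name several RNA genes share. Flt1 was most like Arhgap31 (r = 0.947), Cdh5, which encodes the endothelial junction protein VE-cadherin (r = 0.932), and Notch4, a Notch receptor of endothelium (r = 0.914). The genes nearest to Vegfa were Cep85 (r = 0.896), Fhl3 (r = 0.886) and Trdn, which encodes triadin of the sarcoplasmic reticulum (r = 0.875). Those nearest to Vegfb were Arglu1 (r = 0.890), Trpm3 (r = 0.846) and Slc10a1 (r = 0.834), and those nearest to Vegfc were Meox2, an endothelial homeobox gene (r = 0.884), Pik3c2b (r = 0.874) and Eif3k (r = 0.872). Pgf was most like Gpm6a (r = 0.943), Efemp2, a matrix gene (r = 0.887), and Ccdc28b (r = 0.878), and Hif1a most like AABR07001054.2 (r = 0.918), Cacng4 (r = 0.909) and Bhlhe41, a transcriptional repressor (r = 0.891). In each case these are the highest of 14213 values over 12 rats.

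Because the receptors are endothelial genes, a list of endothelial markers was followed beside them. Of its 13 genes 12 were in the table, Cldn5 stood at 0 counts in all rats and 10 passed the low-count filter of each comparison. With Robo4, which passed only the filter taken over all 12 rats, 11 markers entered the sums and mean log2 levels. Their summed level was 957 to 1171 CPM in Sham, 904 to 1336 CPM in HF, 960 to 1146 CPM in HFE and 804 to 1150 CPM in BAIBA, and the lowest sum of all, 804 CPM, was that of BAIBA rat 1, the rat with the lowest Flt1, Kdr, Nrp1 and Nrp2. In BAIBA against HFE 7 of 10 tested endothelial markers were lower and 3 higher, with a median log2 fold change of -0.18. In HFE against HF 6 were lower and 4 higher, with a median of -0.04. Against Sham 8 were higher and 2 lower in HF (median 0.18) and in HFE (median 0.16), and 4 were higher and 6 lower in BAIBA (median -0.02). In BAIBA against HF 2 were higher and 8 lower (median -0.21). The part of these markers in the receptor values was not tested. Fewer endothelial cells and less RNA per cell cannot be told apart in bulk tissue.

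The relation of each gene with cell type markers was taken next. Of 18 relations tested between the 9 genes and the mean log2 level of endothelial or of cardiomyocyte markers, by exact permutation of rats within groups (two-sided, 1296 arrangements, smallest possible p 0.000772), none passed an adjusted p of 0.05. The lowest p were those of Flt1. Pearson's r of Flt1 with the endothelial level was 0.582 (p = 0.0185 by exact permutation, 0.167 after adjustment). Its Spearman rho was 0.615 (p = 0.0332 by exact permutation, 0.299 after adjustment), and without the 2 rats farthest from the median r was 0.758. For Flt1 with the cardiomyocyte level r was 0.843 (p = 0.0131 by exact permutation, 0.167 after adjustment). There rho was 0.741 (p = 0.0247 by exact permutation, 0.299 after adjustment), and without the 2 farthest rats r was 0.662. Kdr followed with r of 0.616 for the endothelial level (p = 0.107 by exact permutation, 0.557 after adjustment) and rho of 0.608 (p = 0.0764 by exact permutation, 0.458 after adjustment). At Vegfa both values were small, r = 0.110 with the endothelial level (exact permutation p = 0.733) and r = 0.095 with the cardiomyocyte level (exact permutation p = 0.786).

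Markers of other cell types are given first for BAIBA against HFE, the comparison in which the most of the 9 genes had no overlap. There all 6 macrophage markers were higher (median log2 fold change 0.99), as were all 8 fibroblast markers (median 0.44) and all 4 erythroid markers (median 0.68), and 8 of 9 cardiomyocyte markers were lower (median -0.14). The summed macrophage level was 112 to 127 CPM in Sham, 90.8 to 168 CPM in HF, 62.1 to 89.7 CPM in HFE and 99.9 to 212 CPM in BAIBA. The summed fibroblast level was 1523 to 1643 CPM in Sham, 1191 to 1728 CPM in HF, 1130 to 1570 CPM in HFE and 1478 to 2112 CPM in BAIBA. The summed cardiomyocyte level was 28991 to 30077 CPM in Sham, 27957 to 29512 CPM in HF, 30919 to 34368 CPM in HFE and 26675 to 28627 CPM in BAIBA. The 3 HFE rats thus had the highest sums of the 12, in which the most abundant markers weigh most. On the mean log2 level of the same markers HFE overlapped with Sham and HF. That level ran from 11.324 to 11.493 in HFE, 11.323 to 11.399 in Sham and 11.275 to 11.348 in HF. In HFE against HF all 6 macrophage markers were lower (median -0.56) and 6 of 9 cardiomyocyte markers higher (median 0.18). In HFE against Sham all 6 macrophage markers (median -0.64) and all 8 fibroblast markers (median -0.37) were lower. There 5 cardiomyocyte markers were higher and 4 lower (median 0.001), and all 4 erythroid markers were higher (median 0.09). Of the remaining lists in BAIBA against HFE, lymphatic markers had 4 genes higher and 2 lower (median 0.28), pericyte and smooth muscle markers 4 and 4 (median -0.02), and atrial markers, whose level varied widely between rats, 3 of 3 tested lower (median -1.73). The part of these markers in the values of the VEGF genes was not tested.

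The remaining genes of the pathway were followed as 6 lists with 92 genes, of which 88 to 90 were tested. By the same rule 0 passed with edgeR in any of the 6 comparisons. With DESeq2 the counts were 0 in HF against Sham, BAIBA against HF and BAIBA against Sham, 1 in HFE against HF (Angptl4, where 0.12% of all genes passed), 4 in BAIBA against HFE (Angptl4, Ddit4, Rcan1 and Egr3, where 1.04% did) and 2 in HFE against Sham (Rcan1 and Pfkfb3, where 0.446% did). In BAIBA against HFE same-numbered rats met the rule for pairing (r = 0.195, 0.261 and 0.138), although no label names a shared batch. There edgeR with the replicate number as a block passed 1, Ddit4 (log2 fold change 1.22, adjusted p = 0.0133), beside 0.216% of all genes. At an unadjusted p under 0.05 edgeR put 3 higher and 5 lower in HF against Sham, 3 and 5 in HFE against HF, 4 and 6 in BAIBA against HF, 7 and 13 in BAIBA against HFE, 7 and 5 in BAIBA against Sham and 11 and 6 in HFE against Sham, beside the shares over all genes given above. The genes named next had the lowest p of their list in some comparison or passed with DESeq2. None of them passed the rule in the edgeR fit without the block.

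Among other ligands, receptors and modulators, Flt4, which encodes the lymphatic receptor VEGFR-3 of Vegfc, had a log2 fold change of 0.41 (SE 0.17) in HF against Sham, 0.54 (SE 0.13) in HFE against Sham and 0.46 (SE 0.12) in BAIBA against Sham. It measured 17.0, 18.7 and 21.1 CPM in Sham, 26.3, 29.8 and 19.7 CPM in HF, 24.0, 27.2 and 30.8 CPM in HFE and 25.8, 24.5 and 27.6 CPM in BAIBA, so that every HFE and BAIBA rat was above every Sham rat. Of the 6 lymphatic markers, a list that holds Flt4 itself, 5 were higher and 1 lower in each of these comparisons, with medians of 0.45, 0.28 and 0.87. Their summed level was 115 to 117 CPM in Sham, 131 to 141 CPM in HF, 121 to 136 CPM in HFE and 126 to 188 CPM in BAIBA, and their part in the Flt4 values was not tested. Plxna1, a semaphorin receptor that partners neuropilins, had -0.31 (SE 0.11) in HF against Sham and 0.27 (SE 0.10) in HFE against HF. Sema3f, a ligand of Nrp2, had 0.34 (SE 0.15) in HFE against HF and 0.29 (SE 0.13) in BAIBA against HF. Timp3, a protease inhibitor that can block VEGF binding to VEGFR-2, had 0.34 (SE 0.14) in BAIBA against HF, 0.63 (SE 0.14) in BAIBA against HFE and 0.45 (SE 0.14) in BAIBA against Sham. Plxnd1, a semaphorin receptor of endothelium, had -0.41 (SE 0.11) in BAIBA against HFE and 0.23 (SE 0.08) in HFE against Sham.

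Among signal transducers, Hspb1, a small heat shock protein phosphorylated downstream of VEGFR-2, had a log2 fold change of -0.41 (SE 0.17) in BAIBA against HF, -0.53 (SE 0.11) in BAIBA against HFE and -0.37 (SE 0.17) in BAIBA against Sham. Prkca, a protein kinase C, had -0.47 (SE 0.15) and Pik3r1, a regulatory subunit of PI3 kinase, -0.64 (SE 0.22) in HFE against HF, and Prkca had -0.37 (SE 0.19) in BAIBA against HF. Nos3, endothelial nitric oxide synthase, had 0.29 (SE 0.09) and Plcg1, which binds activated VEGFR-2, 0.27 (SE 0.08) in HFE against Sham, and Akt1 had -0.31 (SE 0.09) in BAIBA against HFE. The 2 with the lowest p in HF against Sham were Mapkapk2 at -0.16 (SE 0.09) and Sh2d2a at 1.37 (SE 0.84), an adaptor of VEGFR-2 that had 1.12 (SE 0.49) in BAIBA against Sham.

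Among genes that VEGF is known to induce in endothelium, Apln, which encodes the vascular peptide apelin, had a log2 fold change of -0.87 (SE 0.17) in HF against Sham, 0.78 (SE 0.21) in HFE against HF and 0.50 (SE 0.21) in BAIBA against HF, with no overlap of the groups in any of these. Aplnr, its receptor, had -0.44 (SE 0.09) in BAIBA against Sham. Col4a1 and Col4a2, collagens of the vascular basement membrane, had -0.50 (SE 0.14) and -0.71 (SE 0.12) in BAIBA against HFE, and Col4a2 had -0.60 (SE 0.19) in BAIBA against HF, -0.42 (SE 0.12) in BAIBA against Sham and 0.30 (SE 0.08) in HFE against Sham. Rcan1, a calcineurin inhibitor, had 1.12 (SE 0.42) in HF against Sham and 1.13 (SE 0.24) in HFE against Sham. In BAIBA Rcan1 had -1.14 (SE 0.31) against HFE, -1.14 (SE 0.46) against HF and -0.01 (SE 0.35) against Sham. Egr3 had -3.20 (SE 1.13) in BAIBA against HFE, and Mcam had 0.32 (SE 0.16) in HFE against HF.

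Among regulators of the HIF proteins, Cited2, which competes with HIF for its coactivator, had a log2 fold change of -0.40 (SE 0.15) in HFE against HF, -0.60 (SE 0.11) in HFE against Sham and 0.46 (SE 0.12) in BAIBA against HFE. Vhl, which marks HIF for degradation, had -0.24 (SE 0.09) in HF against Sham, -0.28 (SE 0.13) in BAIBA against Sham and -0.20 (SE 0.10) in HFE against Sham. Egln3, a HIF prolyl hydroxylase, had -0.28 (SE 0.12) in BAIBA against HFE and -0.18 (SE 0.11) in BAIBA against Sham. The 2 with the lowest p in BAIBA against HF were Hif3a at 1.00 (SE 0.72) and Hif1an at -0.29 (SE 0.24), Epas1 had 0.21 (SE 0.12) in HF against Sham and Arnt -0.20 (SE 0.10) in HFE against HF.

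Of HIF target genes, Slc2a1, which encodes the glucose transporter GLUT1, had a log2 fold change of -0.63 (SE 0.14) in HF against Sham, -0.51 (SE 0.14) in HFE against Sham and -0.56 (SE 0.13) in BAIBA against Sham, below Sham without overlap in all 3. Hk2, hexokinase 2, had -0.67 (SE 0.16) in HF against Sham, -0.34 (SE 0.10) in HFE against Sham, 0.53 (SE 0.16) in BAIBA against HF and 0.32 (SE 0.16) in HFE against HF. Pfkfb3, an activator of glycolysis, had -0.43 (SE 0.13) in HFE against HF and -0.34 (SE 0.13) in BAIBA against HF. Against Sham, Pfkfb3 had -0.63 (SE 0.31) in HF, where the groups overlapped, -1.05 (SE 0.31) in HFE and -0.96 (SE 0.29) in BAIBA. Ddit4, an inhibitor of mTORC1 that passed with the block, had 1.20 (SE 0.21) and Ndrg1 0.39 (SE 0.15) in BAIBA against HFE.

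Among other angiogenic factors, Angptl4, a lipoprotein lipase inhibitor, had a log2 fold change of 3.55 (SE 1.15) in HF against Sham, -3.65 (SE 1.01) in HFE against HF, 2.00 (SE 0.39) in BAIBA against HFE and 1.89 (SE 0.63) in BAIBA against Sham, and its groups overlapped in the first of these. Tie1, an endothelial receptor, had -0.42 (SE 0.11) in BAIBA against HFE and 0.26 (SE 0.09) in HFE against Sham, signs that Kdr shared. Cxcr4, a chemokine receptor, had -0.40 (SE 0.16) and Pdgfrb, a pericyte receptor, 0.21 (SE 0.09) in BAIBA against HF. Notch1 had 0.24 (SE 0.10) in HF against Sham and 0.20 (SE 0.10) in HFE against Sham, Fgf1 had -0.23 (SE 0.15) in HFE against HF, and Angpt1 had -0.73 (SE 0.35) in BAIBA against Sham. The similarly named Flt3, a receptor of blood progenitors that does not bind VEGF, lay at 0.460 to 4.52 CPM and its ligand Flt3lg at 2.34 to 4.93 CPM in single rats, and both overlapped between all neighbours in the order of group means.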

How the data were processed

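RNA from the left ventricle of 12 rats was sequenced as paired-end mRNA libraries, and groups were taken from the treatment given in the labels. The authors aligned reads with HISAT2, assembled them with StringTie and counted reads per gene with featureCounts, and deposited the raw count of each gene. The authors also deposited FPKM values, computed from these counts and gene length. Versions are not given in the sources used here, and the submitters' processing notes name a mouse build although the gene identifiers are rat Ensembl, so no coordinates were taken from the counts. Promoters came from RefSeq on GRCr8, an assembly used for names and sequences only. The 9 genes, the gene lists and the tests were chosen with earlier results of these data known.

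Counts were fitted for each pair of groups with edgeR 4.0.16 (TMM scaling, low-count filter of filterByExpr, robust quasi-likelihood test, Benjamini-Hochberg adjustment over all genes tested) in R 4.3.3. A gene passed when its adjusted p was below 0.05 and its log2 fold change was beyond 1 in either direction, the thresholds of the study. All 9 genes passed the low-count filter in every comparison. DESeq2 1.42.0 and limma 3.58.1 (on log2(FPKM + 1) or log2(FPKM + 0.1), mean FPKM at least 0.1) served as alternatives, together with other scalings, filters, a fit of all 12 rats, a replicate block and each rat left out. Log2 CPM used a prior count of 2. Scripts were tested on simulated data. Named besides the 9 genes were, for each pathway list and comparison, genes that passed and the 2 with the lowest p, the 3 genes most like each of the 9 over the rats, and other genes whose symbol begins with Vegf, Flt, Kdr or Nrp.

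Same-numbered rats deviated together from their group means in 3 of 3 pairs of BAIBA against HFE (r = 0.195, 0.261 and 0.138), which counts as pairing by the rule used although the labels name no shared batch, and not in the other comparisons. No source says more of the replicates than that they are numbered hearts, so p-values cover the spread between these samples. Library totals ran from 14812541 to 19732588 counts, which limits the precision most for Pgf and Vegfc. Strand use in counting is not given in the sources used here.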

Additional observations from a re-analysis of the deposited data

How the results depend on the processing

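None of the 9 genes passed both thresholds in any of the 6 comparisons under any of the 17 alternatives run for each, the replicate block included, where the count for BAIBA against HFE was again 0. With the fold limit set aside, DESeq2 gave an adjusted p under 0.05 to Vegfa in HFE against HF and in HFE against Sham, and to Nrp2 in BAIBA against HFE. So did edgeR without a low-count filter to Vegfa in HFE against Sham, and the other alternatives to none of the 9. The 9 genes were chosen with fold changes of these rats known, so these values carry no test. The share of all genes that reached an adjusted p under 0.05 in these settings is not given. Of 918 fold changes of the 9 genes under alternatives, 916 stayed within 1 SD of the value reported, the SD between rats pooled over both groups. The 2 that did not were both of Pgf in BAIBA against Sham, which was 0.41 with limma on log2(FPKM + 1), a scale that shrinks low genes. Leaving out 1 rat can hardly move a value by such an SD, so for those alternatives the count could hardly show a change. Several of them turned the sign, as given above. Setting the fold limit aside leaves the fold changes as they were. No relation with the endothelial or cardiomyocyte level passed under any of 16 alternatives.

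Of the other pathway genes, where edgeR passed 0, DESeq2 passed 1 in HFE against HF, 4 in BAIBA against HFE and 2 in HFE against Sham. In BAIBA against HFE the replicate block passed 1 (Ddit4), and leaving out 1 rat gave 0 to 1 (Rcan1 without BAIBA rat 1, Aplnr without HFE rat 3). In BAIBA against Sham leaving out 1 rat gave 0 to 1 (Pfkfb3 without Sham rat 3). The cause was not tested.

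Counts over all genes depended more on the tool. edgeR passed 0, 0, 0, 12, 6 and 0 genes in HF against Sham, HFE against HF, BAIBA against HF, BAIBA against HFE, BAIBA against Sham and HFE against Sham, and DESeq2 passed 23, 18, 27, 154, 69 and 66. Leaving out 1 rat gave 0 to 4, 0 to 0, 0 to 4, 3 to 20, 4 to 16 and 0 to 4. Without a low-count filter the counts were 30 in BAIBA against HFE, 30 in BAIBA against Sham and 25 in HFE against Sham, and with the replicate block 32 in BAIBA against HFE. The block changed no call among the 9 genes, and over all genes it passed 0, 0, 0, 9 and 1 in the other 5 comparisons, in the order given. In those 5 same-numbered rats did not meet the rule for pairing.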
